A study of Mus musculus with 6 samples.

Results

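Cholesterol synthesis was followed through 8 enzymes, Hmgcs1, Mvd, Idi1, Fdps, Fdft1, Sqle, Lss and Cyp51, in RNA from mouse liver tumors. The members were taken by gene symbol, and all 8 were found once each among the 30236 genes of the table. The tumors came from male C57BL/6 mice, 3 labelled WT and 3 labelled Top1mt-/- (Top1mt-KO), from a line without a functional Top1mt, the gene of the mitochondrial DNA topoisomerase; the study's methods describe the genotypes as littermates. All animals, WT included, had received the liver carcinogen diethylnitrosamine on day 14 of life and the liver toxin carbon tetrachloride for 14 weeks from week 8, and tumors were taken at 22 weeks of age. Whole tumor tissue was sequenced, so each value mixes tumor cells with stroma, and for every gene below fewer cells of a type and less RNA per cell cannot be told apart. Tumor-free liver was not analysed here. The labels do not say whether each tumor came from a separate mouse, and p-values then measure only the spread between these tumors.

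Cholesterol is built from acetyl-CoA in the cytosol and endoplasmic reticulum. The first steps make mevalonate and the isoprenoid farnesyl diphosphate, and the later steps join farnesyl units into squalene, close the sterol ring and trim it to cholesterol. The liver is a main site of this synthesis. Transcription of most of these enzymes is driven by SREBP2, the product of Srebf2, a membrane-bound factor. When sterols are scarce, the escort protein SCAP carries it to the Golgi, where the proteases encoded by Mbtps1 and Mbtps2 release it. When sterols are plentiful, the proteins encoded by Insig1 and Insig2 hold SCAP in the endoplasmic reticulum.

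Because the members are textbook targets of a shared factor, the promoters of those with an entry in the RefSeq promoter set are shown. That set had windows for 5 of the 8 members, Hmgcs1, Mvd, Idi1, Lss and Cyp51, and none for Fdps, Fdft1 and Sqle. The 8 genes lie on 7 chromosomes, and only Hmgcs1 and Idi1 share one, chromosome 13. Each line below gives the 200 bases before the transcription start, 5′ to 3′ on the gene's own strand, in GRCm38.p6. The windows lie at chr13:119690151-119690350, plus strand for Hmgcs1, chr8:122443423-122443622, minus strand for Mvd, chr13:8885406-8885605, plus strand for Idi1, chr10:76531405-76531604, plus strand for Lss and chr5:4104698-4104897, minus strand for Cyp51. The annotated Lss gene begins at chr10:76531565, within its printed window, so distances for Lss are from a start further downstream. Capitals mark the CCAAT box bound by NF-Y, the GGGCGG box bound by Sp1 and the sterol regulatory element TCACNCCAC bound by SREBP, on either strand.
Hmgcs1: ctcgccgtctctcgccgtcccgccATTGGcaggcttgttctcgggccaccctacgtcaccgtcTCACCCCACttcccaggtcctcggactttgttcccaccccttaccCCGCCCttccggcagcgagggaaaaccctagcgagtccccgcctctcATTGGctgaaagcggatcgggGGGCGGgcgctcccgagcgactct
Mvd: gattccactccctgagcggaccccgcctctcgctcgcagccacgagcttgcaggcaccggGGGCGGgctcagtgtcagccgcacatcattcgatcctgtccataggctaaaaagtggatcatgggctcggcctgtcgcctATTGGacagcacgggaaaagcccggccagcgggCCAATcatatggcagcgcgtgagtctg
Idi1: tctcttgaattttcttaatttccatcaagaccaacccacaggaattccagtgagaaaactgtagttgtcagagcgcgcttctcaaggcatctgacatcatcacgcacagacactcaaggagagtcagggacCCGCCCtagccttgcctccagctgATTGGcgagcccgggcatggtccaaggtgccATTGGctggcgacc
Lss: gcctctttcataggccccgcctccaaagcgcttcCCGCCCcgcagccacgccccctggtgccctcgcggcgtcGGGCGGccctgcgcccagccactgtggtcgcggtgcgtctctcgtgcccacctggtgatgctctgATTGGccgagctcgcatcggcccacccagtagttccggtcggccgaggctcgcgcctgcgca
Cyp51: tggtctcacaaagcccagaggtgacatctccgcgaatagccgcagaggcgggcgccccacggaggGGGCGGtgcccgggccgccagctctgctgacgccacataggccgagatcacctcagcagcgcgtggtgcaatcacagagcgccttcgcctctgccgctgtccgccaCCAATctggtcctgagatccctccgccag

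The search covered both strands of the whole window, from 250 bases before to 50 bases after the start. CCAAT was present in 5 of the 5 member windows and in 37.4% of all 32851 windows. GGGCGG was also present in 5 of 5, against 35.7% of all windows. In each of these promoters a CCAAT box began within the 62 bases before the start. The distances were 62 bases in Lss, 60 and 27 in Mvd, 45 and 14 in Idi1, 45 in Hmgcs1 and 29 in Cyp51. Another CCAAT box of Hmgcs1 began 10 bases after the start. The sterol regulatory element was found in 1 member window, that of Hmgcs1, where it began 137 bases before the start between 2 CCAAT boxes, and in 1.24% of all windows. The E-box CACGTG was found in 0 member windows and in 7.15% of all windows. The matches found in these promoters did not overlap each other. The member windows held 52.3% to 71.0% G and C, where the median of all windows was 52.7%. Among 10 further cholesterol enzymes with a window, 9 held CCAAT, 9 held GGGCGG and 3 held CACGTG, and 0 held the sterol regulatory element as spelled. These 10 were counted by gene, over any window of the gene, whereas the shares of all windows are by window. A match is a run of letters and not a measured site, and the absence of one says only that these letters are not in the window.

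Values are the log2 expression levels that the authors deposited, normalized between libraries. They are not scaled to transcript length, so levels are compared between tumors and not between genes, and the depth of each library is unknown. The label check came first. Among libraries labelled WT, Top1mt read 7.71, 5.99 and 8.01 (replicates 1 to 3), and among those labelled KO it read 5.58, 6.41 and 6.32. WT replicate 2 thus lay below KO replicates 2 and 3, against its label, and every direction below rests on the labels as given. KO replicate 1 stood apart by Gm42418, at 22.0 there and 11.66 to 15.80 elsewhere. The hepatocyte markers were high in every tumor: Alb, the serum albumin gene, ran from 20.26 to 21.12 and Hnf4a, a hepatocyte transcription factor, from 13.02 to 13.54.

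The enzymes that lead to farnesyl diphosphate were examined first. Of these, 0 of 4 passed an adjusted p of 0.05 by limma, a threshold passed by 0% of the 22677 genes tested. Levels are listed by tumor in the order of replicates 1, 2 and 3. Hmgcs1, which makes HMG-CoA in the cytosol, read 13.17, 14.28 and 13.61 among WT tumors, against 14.25, 14.07 and 13.99 among KO tumors. WT replicate 1 was the lowest tumor and WT replicate 2 the highest, and the 3 KO tumors lay close together between them. The WT mean of 13.68 ± 0.56 (SD, n = 3) compared with a KO mean of 14.10 ± 0.14 (SD, n = 3). The log2 fold change of KO over WT was 0.42 with a standard error of 0.30 and a 95% interval from -0.28 to 1.12 (limma, adjusted p = 0.999). Without WT replicate 2 it was 0.72, at an unadjusted limma p of 0.029 and an adjusted p of 0.961, and without WT replicate 1 it was 0.16.

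Mvd, the decarboxylase that makes isopentenyl diphosphate, read 8.59, 9.91 and 10.17 among WT tumors and 9.87, 9.36 and 9.42 among KO tumors. The WT tumors held both the lowest and the highest level, a span of 1.58 on the log2 scale or 2.99-fold, the widest of the 8 members. With a WT mean of 9.55 ± 0.85 (SD, n = 3) and a KO mean of 9.55 ± 0.28 (SD, n = 3), the log2 fold change was -0.0041 (interval -0.89 to 0.88).

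Idi1, which interconverts the isoprenoid building blocks, read 8.84, 9.45 and 10.08 among WT tumors and 9.79, 9.54 and 9.54 among KO tumors. All KO tumors lay within the WT range, and the log2 fold change was 0.17 (interval -0.49 to 0.83). Fdps, the farnesyl diphosphate synthase, read 11.97, 12.78 and 12.95 among WT tumors and 12.95, 12.39 and 12.42 among KO tumors. KO replicate 1 stood level with WT replicate 3, the other KO tumors lay between WT replicates 1 and 2, and the log2 fold change was 0.020 (interval -0.65 to 0.69).

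The 4 enzymes from squalene onward all had lower means in KO, by amounts smaller than the spread between tumors. Fdft1, the squalene synthase, read 11.21, 12.13 and 12.11 among WT tumors and 11.76, 11.22 and 11.51 among KO tumors. Its WT mean of 11.81 ± 0.53 (SD, n = 3) stood above the KO mean of 11.50 ± 0.27 (SD, n = 3), with a log2 fold change of -0.32 with a standard error of 0.27 (interval -0.95 to 0.31, limma adjusted p = 0.999). WT replicate 1 lay below all KO tumors and the other WT tumors above them. Leaving out WT replicate 1 gave -0.62, at an unadjusted limma p of 0.021 and an adjusted p of 0.994, whereas leaving out WT replicate 2, WT replicate 3 or KO replicate 2 gave -0.16, -0.17 and -0.18.

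Sqle, the squalene epoxidase, read 11.34, 12.13 and 12.13 among WT tumors and 12.08, 11.54 and 11.66 among KO tumors, with the narrowest span of the 8, 1.73-fold. Lss, the lanosterol synthase that closes the ring, read 11.68, 12.90 and 12.75 among WT tumors and 12.86, 11.94 and 12.08 among KO tumors. Cyp51, the lanosterol demethylase, read 11.88, 13.13 and 13.22 among WT tumors and 12.99, 12.48 and 12.69 among KO tumors. In all of these, WT replicate 1 was the lowest tumor, WT replicates 2 and 3 and KO replicate 1 were high, and KO replicates 2 and 3 lay between. The log2 fold changes were -0.11 for Sqle (interval -0.70 to 0.47), -0.15 for Lss (interval -1.005 to 0.70) and -0.021 for Cyp51 (interval -0.84 to 0.80).

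**Figure D1:**
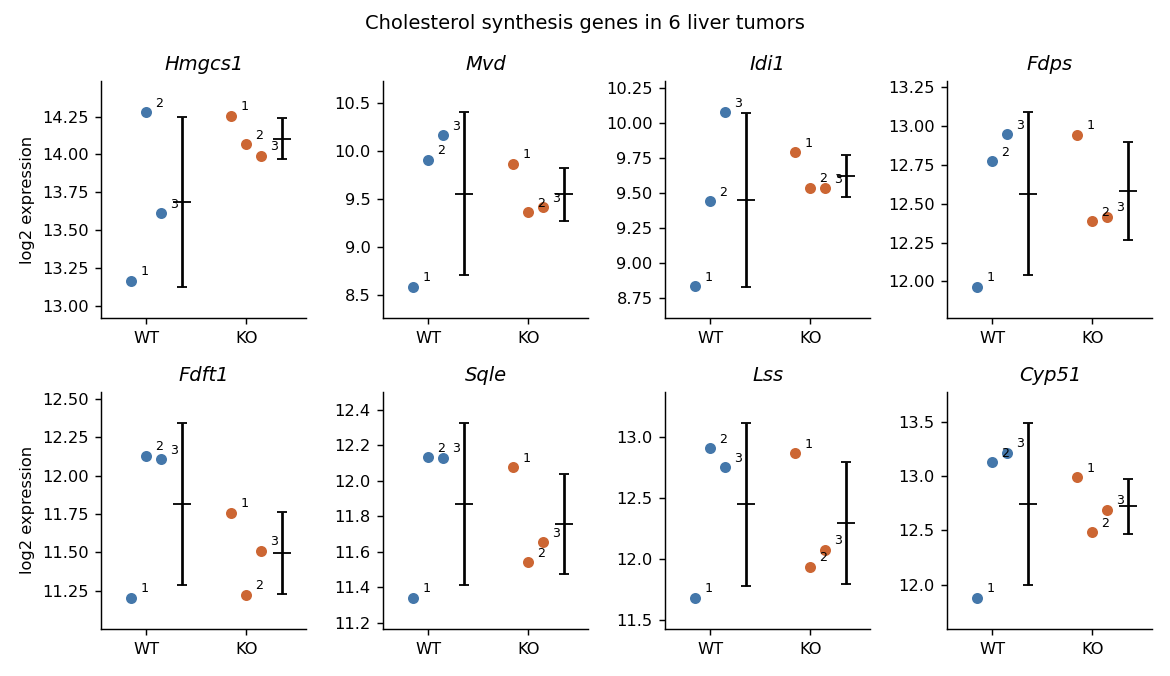
Deposited log2 expression (vertical axes, a separate scale for each gene) of the 8 members in 3 WT and 3 Top1mt-KO (KO) liver tumors. Points are tumors with their replicate number, and the bar is the mean ± SD (n = 3). WT replicate 1 is the lowest point in every panel, and the groups overlap in every panel.

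Across the members, 0 of 8 passed an adjusted p of 0.05 by limma over 22677 genes tested, where the share of all genes tested was 0%. An unadjusted p below 0.05 was reached by 0 of 8, against 4.34% of all genes tested (985 genes), and the smallest unadjusted p of a member was 0.202, that of Hmgcs1. The 2 genotypes did not overlap in 0 of 8, against 8.28% of all genes. By sign, 3 members had a higher mean in KO and 5 a lower one. Their median log2 fold change was -0.013, where the median of all genes tested was -0.015 and 47.7% of them were higher. Exact two-sided permutation tests of the single members gave p from 0.4 to 1.0, where 3 tumors against 3 allow no p below 0.1. The 95% intervals of the members extend up to 1.12 (Hmgcs1) and down to -1.005 (Lss), so differences within them cannot be told from 0 with these tumors. All members lay above the filter on low values, so the counts cover all 8.

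The direction itself turned on single tumors. Without WT replicate 1, 1 of 8 members was higher in KO and the median log2 fold change was -0.41. Without WT replicate 2, whose Top1mt went against its label, 7 of 8 were higher and the median was 0.15. Without WT replicate 3, 6 of 8 were higher and the median was 0.21, and without KO replicate 1 it was 2 of 8 and -0.16. Only Hmgcs1, higher in KO, and Fdft1, lower, kept their sign in each of the 6 fits that left out 1 tumor.

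**Figure D2:**
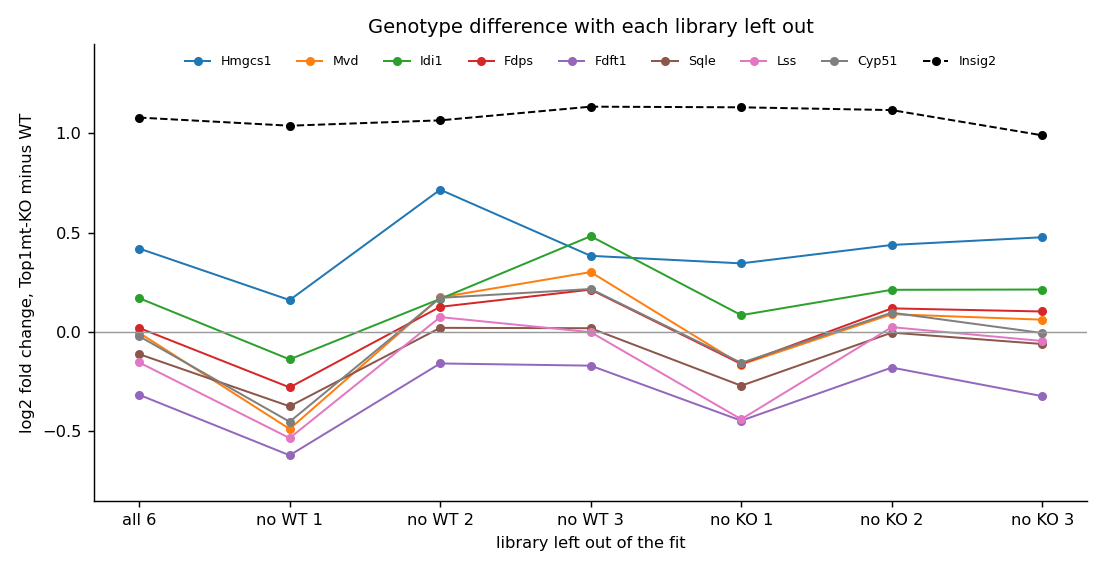
Log2 fold change of KO over WT (vertical axis) for the 8 members and Insig2 with all 6 tumors and with each tumor left out in turn (horizontal axis); lines join the values of a gene. All members lie lower without WT replicate 1. Without WT replicate 2 or 3 most lie higher, the exceptions being Idi1 (0.17 both with and without WT replicate 2) and Hmgcs1 (0.38 without WT replicate 3), while Insig2 stays between 0.99 and 1.13.

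The tumors differed from each other more than the genotypes did. The median standard deviation of a member over the 6 tumors was 0.42 on the log2 scale, against 0.40 for all genes tested and 0.30 for the 15118 genes tested whose mean lay above the median of the table. Between genotypes lay 2.83% of a member's variance at the median (from 0.0016% in Mvd to 28.6% in Hmgcs1), against 12.3% for all genes tested. As the mean of the 8 members' centred log2 values, WT tumors stood at -0.68, 0.32 and 0.36 and KO tumors at 0.30, -0.20 and -0.10. WT replicate 1 was thus set apart, WT replicates 2 and 3 and KO replicate 1 formed the high end, and the other KO tumors lay between. WT replicate 1 was the lowest tumor for 8 of 8 members, where it was the lowest for 17.4% of all genes tested. This grouping was seen in the values, which give it no test.

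Among the 28 pairs of members, Pearson's r over the 6 tumors had a median of 0.89 and ran from 0.37 to 0.99, with 18 pairs over 0.8. Lss and Sqle, and Mvd and Cyp51, were the closest pairs, each at 0.99. The points of a pair share libraries and their normalization, so r is given as a description. Leaving out each tumor in turn gave medians from 0.856 to 0.915. The lowest r of a pair depended on WT replicate 1. Without that tumor it was -0.715 among all pairs and 0.393 among pairs without Hmgcs1. Without WT replicate 1 and KO replicate 2, the tumors farthest from the median, the median was 0.73 over the 4 tumors left.

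Hmgcs1 followed the others least. Its r with the mean of the other 7 was 0.58, where the other members had 0.81 to 0.99 with the mean of their own 7. Without WT replicate 1 it was -0.17 and without WT replicate 3 it was 0.91. Relative to the mean of the other 7 and centred, Hmgcs1 stood at -0.053, 0.069 and -0.74 among WT tumors and at 0.065, 0.43 and 0.23 among KO tumors. WT replicate 3 was the low tumor by this measure, and KO replicates 2 and 3 were the high ones. Among the 21 pairs without Hmgcs1 the lowest r was 0.63, that of Idi1 and Fdft1.

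**Figure D3:**
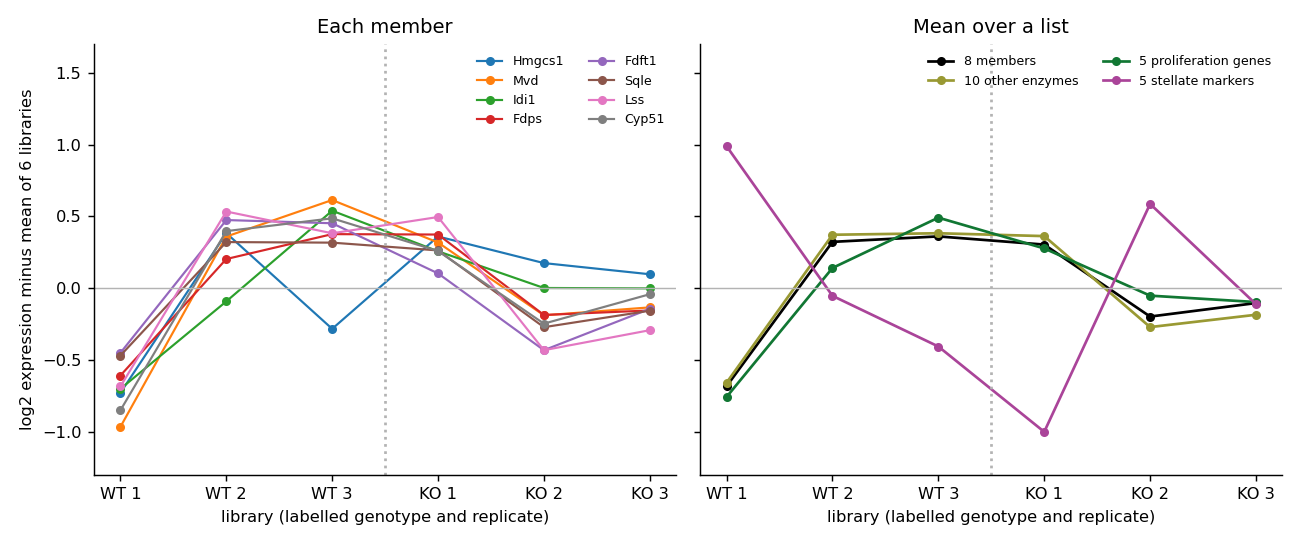
Left, log2 expression of each member minus its mean over 6 tumors (vertical axis) in each tumor (horizontal axis); right, the mean of the same measure over the 8 members, 10 other cholesterol enzymes, 5 proliferation genes and 5 stellate cell markers. Lines join the values of a gene or list and imply no order; WT replicate 1 lies lowest for the members, the other enzymes and the proliferation genes and highest for the stellate markers.

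For comparison, 10 other enzymes of the pathway were taken from a hand-written list that is not complete and was shortened after its values were seen, so its counts and median are descriptions of these 10 genes. As the mean of their centred log2 values, WT tumors stood at -0.66, 0.37 and 0.38 and KO tumors at 0.36, -0.27 and -0.19. The r with the mean of the 8 members was 0.8 or more in 7 of 10, against 2.72% of all genes tested with the same measure. Hsd17b7, a sterol ketoreductase, had 0.99, and Nsdhl, a sterol dehydrogenase, had 0.95. Mvk, the mevalonate kinase, had the widest span of the list, 8.77, 10.12 and 10.60 in WT and 10.26, 8.88 and 9.39 in KO, or 3.57-fold. Between genotypes 0 of 10 passed at an adjusted p or at an unadjusted p under 0.05, against 0% and 4.34% of all genes tested. Of the 10, 4 were higher and 6 lower in KO, where 47.7% of all genes tested were higher. The median log2 fold change of the 10 was -0.041. Mvk had the lowest value, -0.32 (standard error 0.50), and Pmvk, the phosphomevalonate kinase, the highest, 0.27 (standard error 0.25). Msmo1, a sterol methyl oxidase, had -0.30, -0.73 without WT replicate 1 and -0.0045 without WT replicate 3.

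Of the genes outside the lists with a mean above the median of the table, the 5 with the highest r to the mean of the members were C330027C09Rik (0.99), Zwilch (0.99), Fhdc1 (0.98), Snord17 (0.98) and Zfp688 (0.97), over 6 tumors. Zwilch encodes a kinetochore protein, and Snord17 is a small nucleolar RNA. Their log2 fold changes lay between -0.075 and 0.066. Over the 22677 genes tested, 194 (0.855%) had an r of 0.9 or more. Among the 10 other enzymes 5 did.

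Markers of proliferation and of stellate cells differed between the same tumors. All 5 proliferation genes were lowest in WT replicate 1. Mki67, the Ki67 gene, read 9.63, 10.65 and 10.67 among WT tumors and 10.81, 10.50 and 10.31 among KO tumors, and Ccnb1, a mitotic cyclin, read 6.19, 7.49 and 7.50 among WT tumors and 7.38, 6.59 and 6.92 among KO tumors. The r with the members' mean was 0.94 for Mki67, 0.99 for Ccnb1, 0.92 for Birc5, 0.83 for Cdk1 and 0.56 for Top2a. An r of 0.8 or more was reached by 2.72% of all genes tested. Of the 5 stellate cell markers 4 were highest in WT replicate 1 and 3 lowest in KO replicate 1. Col1a1, a collagen of activated stellate cells, read 11.75, 10.11 and 9.86 among WT tumors and 9.57, 11.54 and 10.03 among KO tumors, and had an r of -0.87 with the members' mean, where the other 4 stellate markers ran from -0.83 (Col1a2) to -0.45 (Lrat). In the other marker lists r ran from -0.49 to 0.52 (hepatocyte), -0.38 to -0.074 (macrophage) and -0.56 to 0.28 (lymphocyte). It ran from -0.57 to -0.19 in the endothelial list and from -0.58 to 0.45 in the bile duct list. The part of the marker genes in the members' spread was not tested.

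The summed level of each marker list, as log2 of the added linear values, was compared by genotype. It ran from 10.47 to 11.60 in WT and from 11.18 to 11.51 in KO for the 5 proliferation genes, and from 12.26 to 13.75 and from 11.40 to 13.33 for the 5 stellate markers. The 6 hepatocyte markers ran from 20.45 to 21.11 in WT and from 20.76 to 21.26 in KO, the 5 macrophage markers from 11.93 to 12.91 and from 11.98 to 12.48, and the 5 endothelial markers from 12.53 to 12.77 and from 12.71 to 12.99. The 5 lymphocyte markers ran from 6.42 to 6.71 in WT and from 6.03 to 7.48 in KO. The 5 bile duct markers ran from 11.58 to 12.62 and from 11.70 to 12.58, sums that consist mainly of Spp1. Krt19, a bile duct keratin, read 6.11, 4.75 and 6.93 among WT tumors and 2.86, 4.38 and 2.502 among KO tumors (log2 fold change -2.68, limma adjusted p = 0.987). The summed ranges of WT and KO overlapped in 7 of these 7 lists, but a sum follows its most abundant gene, and single markers did not overlap. There were 2 such genes each in the lymphocyte (Cd3e and Cd3g), endothelial (Pecam1 and Cdh5) and bile duct (Krt19 and Epcam) lists. The hepatocyte, macrophage, stellate and proliferation lists held 0, and 8.28% of all genes tested did not overlap. The 2 lymphocyte genes went opposite ways, with log2 fold changes of -1.03 for Cd3e and 0.90 for Cd3g. Both had low levels, from 1.14 to 3.27 for Cd3e and from 2.44 to 3.83 for Cd3g. All 5 endothelial markers had higher means in KO, as did 47.7% of all genes tested, with Cdh5 at an unadjusted limma p of 0.035. Krt7, a further bile duct keratin, had a log2 fold change of -2.20 (unadjusted limma p 0.017), Epcam -1.19, and Lrat, a stellate cell enzyme, -0.79 (unadjusted limma p 0.026). None of these passed the adjusted threshold, and 4.34% of all genes tested had an unadjusted limma p under 0.05. The part of these markers in the results above was not tested.

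Among the genes that sense sterols and process SREBP, Insig2 was the gene whose groups stood farthest apart. Insig2, whose product holds SCAP in the endoplasmic reticulum, read 10.64, 10.70 and 10.84 among WT tumors and 11.70, 11.73 and 11.98 among KO tumors. All 3 KO tumors lay above all 3 WT tumors, and the gap between the groups was wider than the range within either. From a WT mean of 10.73 ± 0.10 (SD, n = 3) to a KO mean of 11.81 ± 0.16 (SD, n = 3), the difference on the log2 scale was 1.08 (standard error 0.14, 95% interval 0.75 to 1.41). The unadjusted limma p of 6.5e-05 ranked first among the 22677 genes tested, but the adjusted p was 0.938 and the gene did not pass the threshold. The exact two-sided permutation test gave p = 0.1, the smallest that 3 tumors against 3 allow. The log2 fold change was 1.07 without WT replicate 2 and 1.13 without KO replicate 1, and the adjusted p ran from 0.332 to 0.999 over all alternatives. Genotype held 96.3% of its variance over the tumors. Its r with the members' mean was 0.042.

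Insig1, the sterol-regulated relative of Insig2 and itself a target of SREBP, read 12.48, 13.24 and 13.28 among WT tumors and 13.52, 13.43 and 13.04 among KO tumors. It was lowest in WT replicate 1 like the members, with an r of 0.78 to their mean, and its groups overlapped (log2 fold change 0.33, interval -0.28 to 0.95). The fold change was 0.071 with WT replicate 1 left out. Srebf2 was 9.86, 10.31 and 10.32 among WT tumors and 10.38, 10.16 and 10.38 among KO tumors. It too was lowest in WT replicate 1, over a span of 1.43-fold, with an r of 0.86 and a log2 fold change of 0.14 (-0.0083 without WT replicate 1). Srebf1, which encodes the related factors SREBP1a and SREBP1c, did not follow the members (r = -0.036) and had a log2 fold change of -0.073.

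Scap was 10.94, 11.55 and 10.84 among WT tumors and 11.88, 11.14 and 11.37 among KO tumors, with overlapping groups and a log2 fold change of 0.35 (leave-one-out range 0.14, without KO replicate 1, to 0.57, without WT replicate 2). The protease gene Mbtps2 was 7.77, 7.80 and 7.87 among WT tumors and 8.01, 7.98 and 8.00 among KO tumors. Its groups did not overlap, but the difference was small, a log2 fold change of 0.18 with a standard error of 0.14 (limma adjusted p = 0.999). Of the 7 genes, 6 were higher in KO (47.7% of all genes tested were), and the median log2 fold change was 0.18. The adjusted threshold was passed by 0 of the 7. An unadjusted p under 0.05 was reached by 1 (4.34% of all genes tested did), and 2 did not overlap (8.28% of all).

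**Figure D4:**
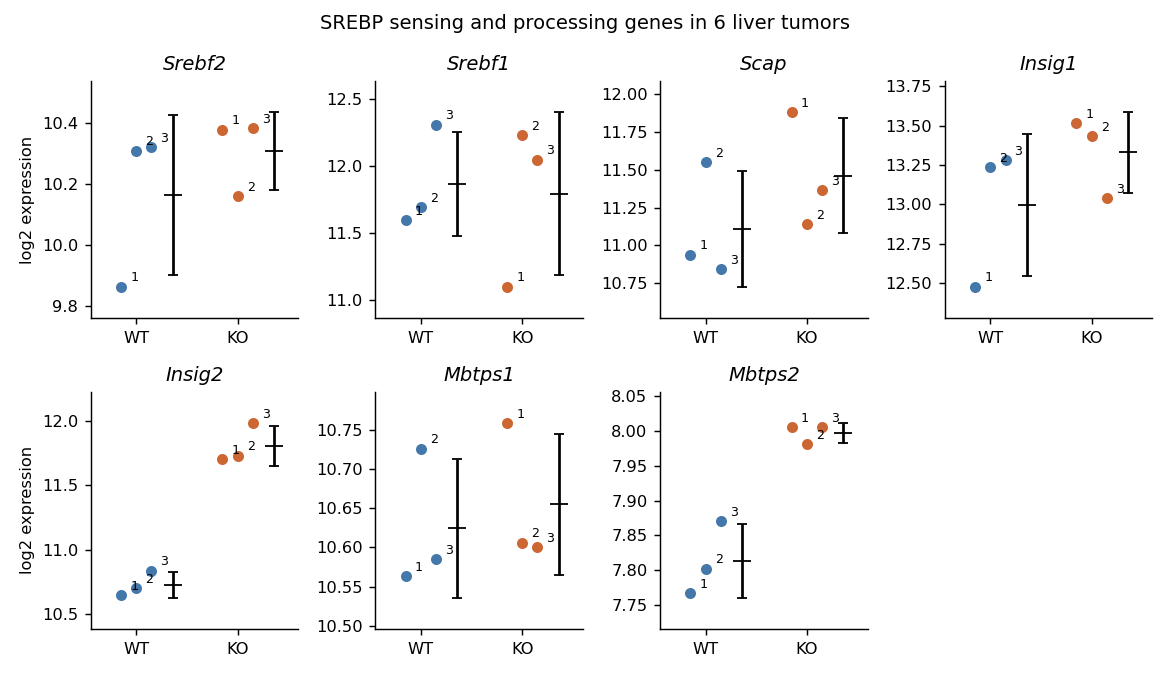
Deposited log2 expression (vertical axes, a separate scale for each gene) of 7 genes that sense sterols and process SREBP in 3 WT and 3 Top1mt-KO (KO) liver tumors. Points are tumors with their replicate number and bars the mean ± SD (n = 3); Insig2 and Mbtps2 are the 2 panels without overlap, with log2 fold changes of 1.08 and 0.18.

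Genes of neighbouring steps were counted for comparison. Of all genes tested, 47.7% were higher in KO, 4.34% had an unadjusted p under 0.05 and 8.28% were without overlap. Among 7 other targets of SREBP and lipid synthesis enzymes, 5 were higher and 2 lower in KO, 0 had an unadjusted p under 0.05 and 0 were without overlap. Stard4, a sterol carrier, read 11.44, 12.41 and 12.08 among WT tumors and 12.03, 11.30 and 11.18 among KO tumors (log2 fold change -0.47, standard error 0.30). Without WT replicate 2 it was -0.26, and without WT replicate 1 or KO replicate 1 it was -0.74. The fatty acid synthesis genes Acly and Elovl6 did not share the members' order of tumors (r = -0.010 and -0.077): both were highest in KO replicate 2 and lowest in KO replicate 3. Among 6 targets of the sterol receptor LXR, 1 was higher and 5 lower, with 0 at an unadjusted p under 0.05. Abcg5, a sterol exporter of the bile canaliculus, read 10.65, 11.49 and 10.85 among WT tumors and 10.88, 10.29 and 9.30 among KO tumors. Its partner Abcg8 was 10.90, 11.49 and 10.81 among WT tumors and 11.20, 10.47 and 9.79 among KO tumors. In both genes KO replicates 2 and 3 lay below all WT tumors and KO replicate 1 within their range. The log2 fold changes were -0.84 (standard error 0.39) and -0.58 (standard error 0.35). With single tumors left out both changed in size but stayed negative. Without KO replicate 1 they were -1.20 and -0.93 (limma adjusted p 0.625 and 0.631), without KO replicate 3 -0.41 and -0.23, and without WT replicate 2 -0.59 and -0.37. Among 7 genes that use farnesyl diphosphate for other products, 5 were higher and 2 lower, 0 had an unadjusted p under 0.05 and 2 did not overlap, where 8.28% of all genes tested did not. These were Dhdds, of dolichol synthesis, with a log2 fold change of 0.26 (0.15 without KO replicate 1), and Pdss2, of coenzyme Q synthesis, with 0.22.

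**Figure D5:**
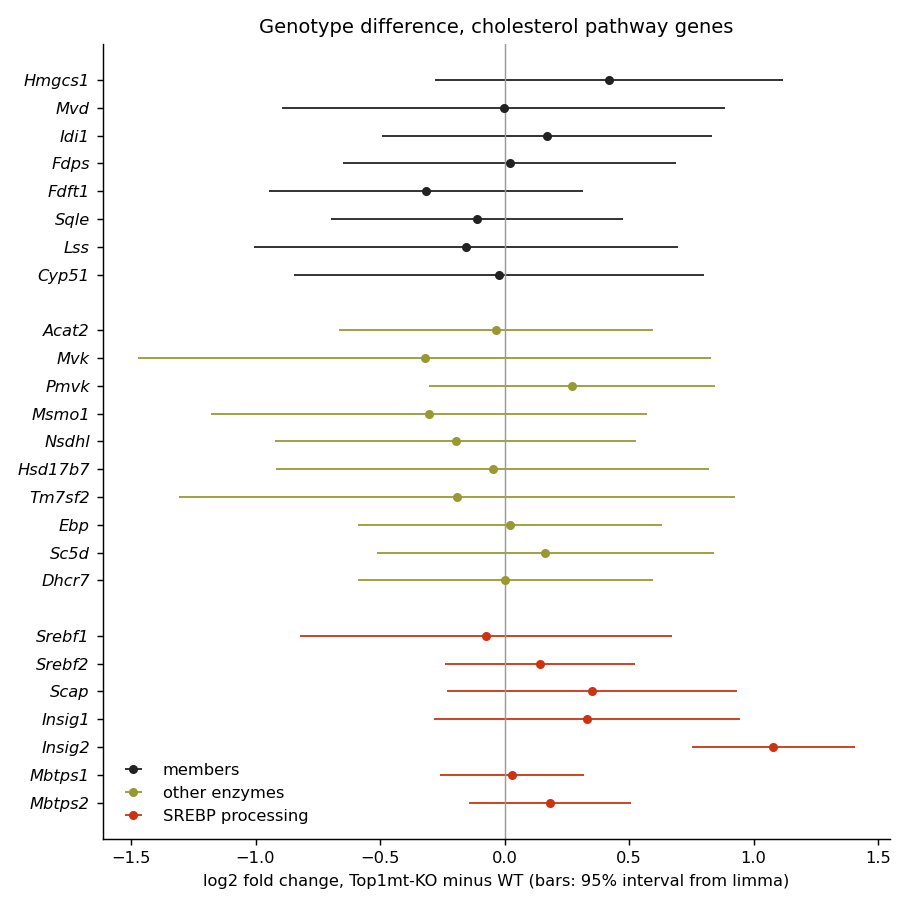
Log2 fold change of Top1mt-KO over WT (horizontal axis) with its 95% interval from limma for the 8 members, 10 other cholesterol enzymes and 7 genes of SREBP processing. The interval lies wholly above 0 for Insig2, from 0.75 to 1.41, and includes 0 for the other genes shown.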

How the data were processed

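RNA-seq of 6 liver tumors was used, grouped by the genotype and number in each sample's title. The authors deposited log2 values per gene symbol, 1 column per library, after trimming with Trimmomatic, alignment, counting of uniquely mapped reads with featureCounts and processing with DESeq2. The paper's methods name BWA and the build Mm 8 for the alignment, whereas the submitters' processing notes list STAR 2.5.1 and GRCm38, and which applies was not resolved. The transform behind the log2 values is not given in the sources used here. The lowest value is -2.24 and the highest 22.0. If it shrinks weak genes toward their mean, as a regularized log does, their fold changes would be understated, which was not tested. No counts or depth were used. Left aside were 3 columns without a name, which hold a few ratios made by the authors. The table has 0 other sample columns.

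The genotype comparison used limma 3.58.1 under R 4.3.3 (lmFit, eBayes with trend, Benjamini-Hochberg) over 22677 genes with a mean above the lowest 25%, at an adjusted p of 0.05. The paper reports genes that differed between these genotypes by a Wald test in DESeq2 on counts, which was not rerun here. The share of 0% passing is that of the main limma fit on log2 values. The fit was tested on simulated data. Named genes are Top1mt, the 8 members, the genes of the pathway lists and the 5 genes closest to the members' mean, and Gm42418 and marker genes were added after their values were seen. The members and lists were chosen with earlier results of these data known. Of the enzyme list, 1 further gene was left out after its values were seen and is not reported here. Alternatives were no trend, quantile normalization, no low-value filter or one set at the median, a block on replicate number, and each library left out in turn. Promoter windows came from RefSeq on GRCm38.p6.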

Additional observations from a re-analysis of the deposited data

How the results depend on the processing

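The number of members past an adjusted p of 0.05 was 0 under every alternative run, and past an unadjusted p of 0.05 it was 0 to 1 with one library left out, the 1 being Fdft1 without WT replicate 1 and Hmgcs1 without WT replicate 2, and 0 under the other alternatives. The median log2 fold change of the members ran from -0.41 to 0.21 with one library left out and changed sign without WT replicate 2 (0.15), WT replicate 3 (0.21), KO replicate 2 (0.093) and KO replicate 3 (0.028). It was -0.058 with quantile normalization. The number of members higher in KO, 3, ran from 1 to 7 with one library left out. Over all genes, 4 passed with no filter on low values and 0 to 1 with one library left out, the 1 without KO replicate 1, while 590 had an unadjusted p under 0.05 with the filter at the median, which tests fewer genes. With the replicate number as a block the count was 0 for the members and 0 over all genes, with 912 genes at an unadjusted p under 0.05, and the deviations of same-numbered libraries correlated at -0.123, -0.0759 and 0.0520, which does not pair them. Of 23 genes followed through the alternatives, 10 changed sign in these leave-one-out fits. Their log2 fold changes ran from -0.49 to 0.30 for Mvd, -0.14 to 0.48 for Idi1, -0.28 to 0.21 for Fdps, -0.37 to 0.021 for Sqle, -0.53 to 0.075 for Lss, -0.45 to 0.22 for Cyp51, -0.29 to 0.27 for Srebf1, -0.00832 to 0.22 for Srebf2, -0.85 to 0.067 for Mvk, -0.00605 to 0.52 for Pmvk. With quantile normalization Fdps was -0.052. The cause of these changes was not tested. The smallest adjusted p of the 23 genes over all alternatives was 0.332 by limma, for Insig2, so 0 of 23 passed. Depth is unknown, so its limit on these values cannot be given.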
